A study of Mus musculus with 28 samples.

Results

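Oligodendrocytes are the glial cells that wrap axons of the brain in myelin, a stack of membrane sheets held together by a small set of dedicated proteins. Their genes come on when a precursor cell leaves the cell cycle and the transcription factor MYRF, working with SOX10, opens the myelin programme, and they stay on in the mature cell. In motor cortex, myelinated fibres run through the deep layers and into the white matter, so nuclei taken from this tissue include those of oligodendrocytes beside those of neurons, astrocytes and microglia. The genes described here are 9 oligodendrocyte and myelin genes, picked by name: Myrf, Mbp, Mobp, Mal, Cldn11, Mog, Ermn, Trf and Enpp2. They are 9 of the 41549 genes in the count tables, and each name matched 1 row.

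The tables hold 28 nuclear RNA libraries from the motor cortex of 7 mice, which the labels number 17 to 23. Each mouse received AAV-Cas9-miR-124-empty in the left hemisphere and AAV-Cas9-miR-124-g4 in the right, both adeno-associated viral vectors that carry an HA-tagged Cas9 nuclease. Fixed nuclei of each side were sorted by fluorescence into those stained for the HA tag, called Cas9 positive, and those not stained, which gives 4 groups of 7 libraries: empty HA-negative, empty HA-positive, g4 HA-negative and g4 HA-positive. The labels give no strain, genotype, sex, age or time after injection, do not say what g4 stands for, and name no promoter for the nuclease. Both vectors carry Cas9 and no uninjected tissue is among the samples analysed here, the vector and the hemisphere coincide and cannot be told apart, and the HA-positive nuclei are whichever cells took up and expressed the vector. In bulk libraries of this kind, fewer nuclei of a cell type and less RNA per nucleus cannot be told apart.

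The libraries held 248612 to 902944 counts and 8687 to 13668 detected genes, so that 1 count was worth 1.05 to 3.68 CPM, the depth-normalised unit used here, which scales each library with 1 set of trimmed-mean factors over the 28 libraries. One library stood apart: that of g4 HA-positive nuclei from animal 19, called library 19 in what follows. It held 618 CPM of Xist together with 46.0 CPM of 4 Y-linked genes, whereas no Xist count was found in any of the remaining 15 libraries from animals 17 to 20. The members' differences between fractions with g4 are given with and without library 19. Counts of genes called from the other lists are given with it only. The labelled tissue was checked against marker lists: 15 genes of excitatory neurons summed to between 1022 and 2648 CPM in every library, and 36 further myelin genes to between 1274 and 2783 CPM in the HA-negative libraries.

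Promoter sequences from RefSeq (GRCm38.p6) were at hand for 5 of the 9 members: Mal, Cldn11, Mobp, Mog and Ermn. The stretch up to 250 bases before each start was searched on both strands for 3 short words linked to oligodendrocyte regulators, namely the SOX core (ACAAAG or ACAATG), the MYRF core (CTGGCAC or CTGGTAC) and the E-box CAGCTG. Over 32851 promoter windows of the same length these were present in 25.2%, 5.93% and 13% of windows. The SOX core stood 6 times in the Mobp window, each time as ACAAAG on the opposite strand, and once, as ACAATG, in that of Ermn. The MYRF core stood once in the Mog window, as CTGGTAC on the opposite strand, 83 bases before the start. None of these words stood in the Mal or the Cldn11 window. The windows of Mobp and Mog, as the members with repeated or rarer words, and that of Mal, as a member with the largest difference between fractions and no word, are printed on the strand of the gene, with the words found in capitals (CTTTGT is ACAAAG and GTACCAG is CTGGTAC read on the other strand). The Mobp window is cut to the 215 bases before the annotated gene start. A match of these letters describes the window and is no evidence of binding.
Mobp, chr9:120149492-120149706, plus strand: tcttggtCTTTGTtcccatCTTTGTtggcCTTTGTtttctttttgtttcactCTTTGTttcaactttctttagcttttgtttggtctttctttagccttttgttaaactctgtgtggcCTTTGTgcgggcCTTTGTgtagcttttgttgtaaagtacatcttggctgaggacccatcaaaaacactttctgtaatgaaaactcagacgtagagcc
Mog, chr17:37023399-37023648, minus strand: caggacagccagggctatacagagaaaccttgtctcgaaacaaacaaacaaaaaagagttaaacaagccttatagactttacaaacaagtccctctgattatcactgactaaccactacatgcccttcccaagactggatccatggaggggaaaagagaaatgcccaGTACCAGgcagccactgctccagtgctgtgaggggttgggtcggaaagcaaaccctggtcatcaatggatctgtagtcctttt
Mal, chr2:127656696-127656945, minus strand: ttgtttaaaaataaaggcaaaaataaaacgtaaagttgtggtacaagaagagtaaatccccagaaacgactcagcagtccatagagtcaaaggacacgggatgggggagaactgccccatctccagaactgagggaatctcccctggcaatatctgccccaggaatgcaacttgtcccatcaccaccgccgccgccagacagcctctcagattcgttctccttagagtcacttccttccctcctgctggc

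**Figure D1:**
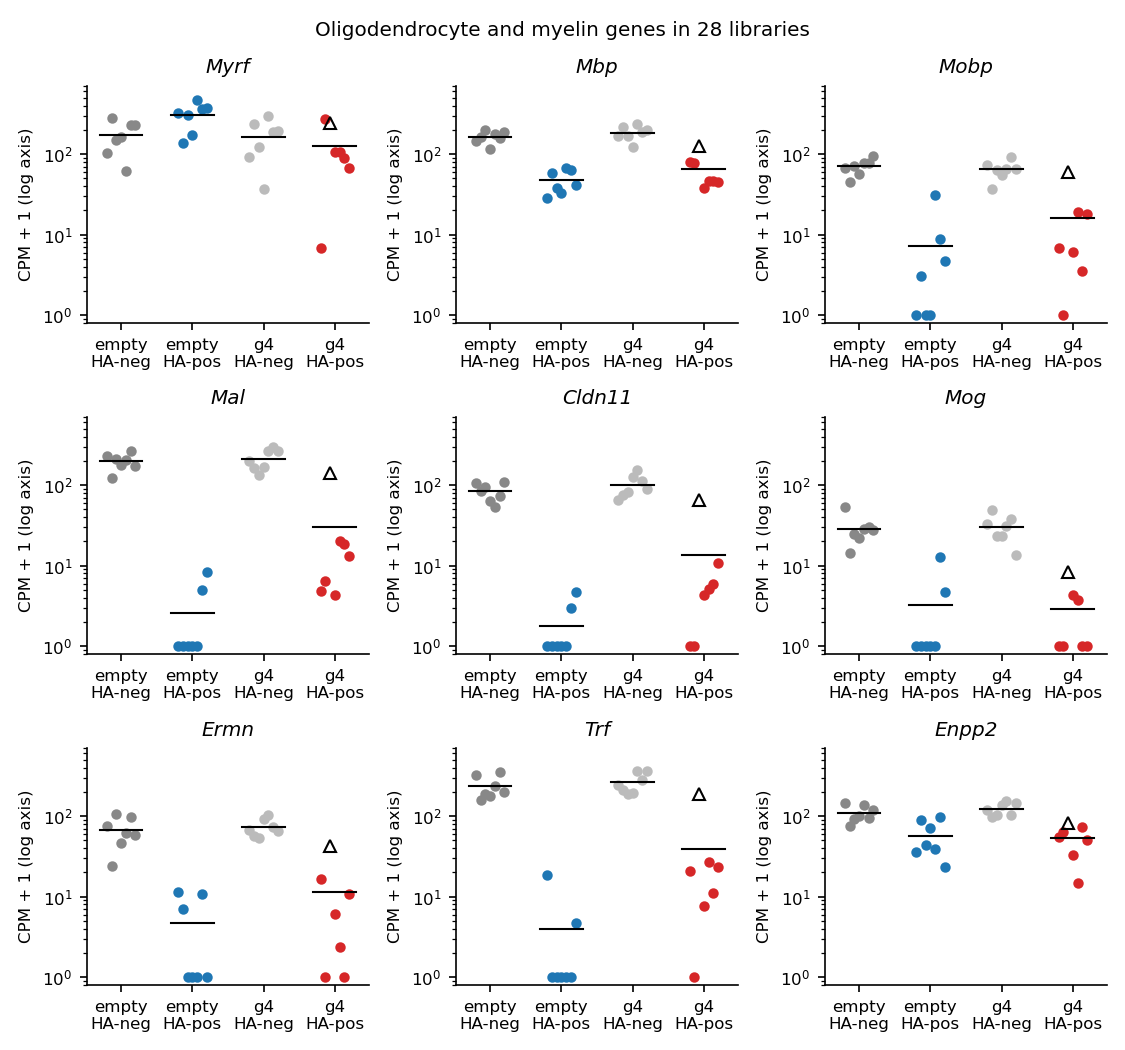
CPM + 1 on a log axis for each of the 9 genes in the 28 libraries. Each point is a library, horizontal bars are group means, and the open triangle is library 19. Mal, Cldn11 and Trf lie at 53.0 CPM or more in every HA-negative library and at 0 in 5 of 7 empty HA-positive libraries, whereas the Myrf values of all 4 groups overlap.

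The first question the sort allows is how the nuclei that made Cas9 differ from those that did not. With the empty vector, 7 of the 8 members that passed the filter on low counts fell in HA-positive nuclei, 0 rose, and Myrf did not pass the test. Over all 5538 genes tested in that comparison, 3.5% were called lower and 7.01% called in either direction (edgeR adjusted p under 0.05). Members near 0 in HA-positive nuclei, such as Mal, Trf and Cldn11, passed the filter through the HA-negative libraries alone. For such members only a fall could be called. The median log2 fold change of the 8 members was -3.74, and that of all genes tested was 0.01. The fall was of very different size from member to member, from 0.821% of the HA-negative mean left for Mal to 51.8% left for Enpp2.

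Mal, a lipid raft proteolipid that sorts proteins into the myelin membrane (chromosome 2, 127633226 to 127656695, minus strand, GRCm38), had a lowest, median and highest value of 121, 205 and 266 CPM in empty HA-negative libraries. In empty HA-positive libraries the same 3 values were 0, 0 and 7.36 CPM, and the 7 libraries together held 4 counts. The groups did not overlap, and Mal was lower in HA-positive nuclei of 7 of 7 animals. The log2 fold change was -6.91 ± 0.44 (SE, edgeR adjusted p = 2.23e-12).

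Trf, which encodes the iron carrier transferrin (chromosome 9, 103204001 to 103230444, minus strand), ran from 159 CPM through a median of 200 to 354 CPM in empty HA-negative libraries. In the empty HA-positive group it was at 0 in 5 of 7 libraries and reached 17.4 CPM in that of animal 17. No HA-positive library came near the HA-negative range, and the log2 fold change was -6.62 ± 0.49 (SE, edgeR adjusted p = 7.48e-10). The annotation places a readthrough gene, Gm20425, over Trf on the same strand, and the counts cannot assign a read to one or the other beyond what the authors' counting did.

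Cldn11, the tight junction protein that seals the layers of the sheath (chromosome 3, 31149920 to 31164324, plus strand), ran from 53.0 through 83.3 to 107 CPM in empty HA-negative libraries. The empty HA-positive libraries held 2 counts in all, in 2 animals, against 332 in the HA-negative ones. Pooled over libraries, HA-positive nuclei held 0.840% of the HA-negative level, with an exact 95% interval from 0.101% to 3.06% that covers counting error only. The log2 fold change was -6.45 ± 0.54 (SE, edgeR adjusted p = 1.43e-09), and Mal, Trf and Cldn11 ranked 3, 4 and 5 from the lowest of the genes tested.

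The other structural members kept more of their level. Ermn, an actin-binding protein of mature oligodendrocytes (chromosome 2, 58045113 to 58052864, minus strand), ran from 22.7 through 61.0 to 104 CPM in empty HA-negative libraries and from 0 through 0 to 10.4 CPM in HA-positive ones, a log2 fold change of -4.02 ± 0.57 (SE, edgeR adjusted p = 1.15e-05). Mobp, a small basic protein of compact myelin whose window is printed above (gene at chromosome 9, 120149707 to 120181484), ran from 43.5 through 70.5 to 94.3 CPM and from 0 through 2.04 to 29.9 CPM. Its log2 fold change was -3.46 ± 0.55 (SE, edgeR adjusted p = 8.04e-05), with 11 of its 17 HA-positive counts in animal 21. For both genes the groups did not overlap and 7 of 7 animals were lower in HA-positive nuclei.

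Mog, a glycoprotein on the outermost face of the sheath (chromosome 17, 37010743 to 37023398, minus strand), failed the filter on low counts in this comparison. It ran from 13.2 through 26.4 to 53.2 CPM in empty HA-negative and from 0 through 0 to 11.8 CPM in empty HA-positive libraries. The groups did not overlap, and 6 of the 7 HA-positive counts lay in 1 library, that of animal 22. With no filter the log2 fold change was -3.47 ± 0.75 (SE, edgeR adjusted p = 0.000334).

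Mbp, the basic protein that zips the cytoplasmic faces of compact myelin together (chromosome 18, 82475146 to 82585637, plus strand), was not lost to the same degree. It ran from 113 through 161 to 196 CPM in empty HA-negative libraries and from 27.8 through 40.5 to 65.3 CPM in empty HA-positive ones, where each library held counts. The groups did not overlap. The log2 fold change was -1.79 ± 0.23 (SE, edgeR adjusted p = 1.92e-06), and 28.4% of the HA-negative mean was left. The Mbp locus is also known to give longer golli transcripts outside oligodendrocytes, and counts per gene do not separate these from myelin transcripts.

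Enpp2, the secreted enzyme autotaxin, which makes lysophosphatidic acid (chromosome 15, 54838901 to 54952892, minus strand), had overlapping groups. It ran from 73.8 through 100.02 to 146 CPM in empty HA-negative libraries and from 22.1 through 42.6 to 96.5 CPM in empty HA-positive ones, and it was lower in 5 of 7 animals. The log2 fold change was -0.89 ± 0.27 (SE, edgeR adjusted p = 0.0414). The call did not hold with the animal as a block (edgeR adjusted p = 0.0660), with limma voom (0.0520), with scaling to library totals alone (0.0502) or without any one of animals 17, 19, 20, 21 and 23 (0.0684 to 0.156).

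**Figure D2:**
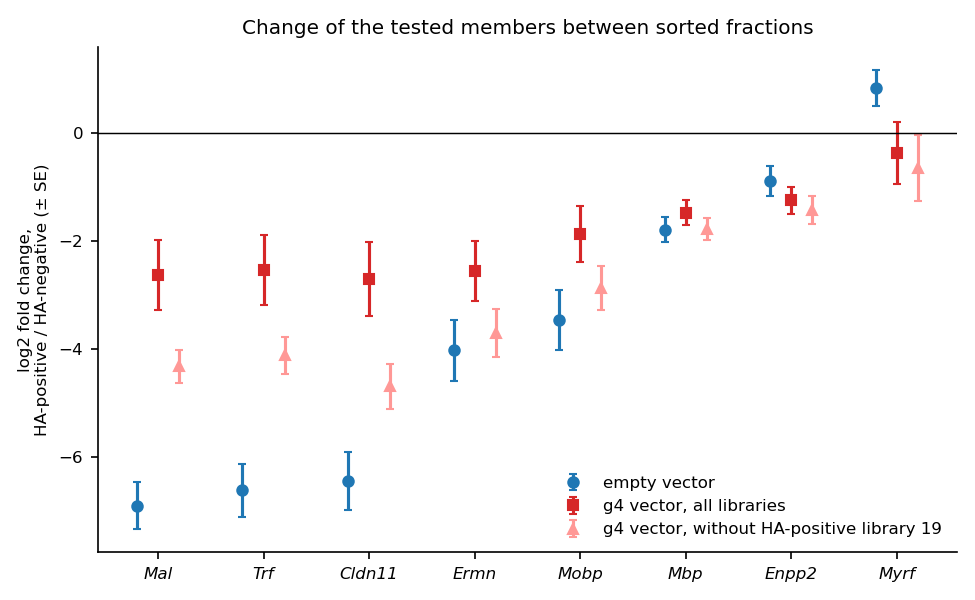
log2 fold change of HA-positive against HA-negative nuclei (± SE) for the 8 members tested in both comparisons, with the empty vector, the g4 vector and the g4 vector without library 19. Without that library the g4 values of Mal, Trf and Cldn11 move from between -2.54 and -2.70 to between -4.12 and -4.69, and remain above the empty-vector values of -6.45 to -6.91. Mbp, Enpp2 and Myrf lie closest to 0.

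With the g4 vector, 7 of the 8 members tested again fell in HA-positive nuclei and 0 rose, where 3.08% of all 6264 genes tested were called lower, 3.32% higher and 6.4% in either direction. These 2 comparisons share no library, but their libraries come from the same animals. In both, members near 0 in HA-positive nuclei could be called lower but not higher. Mbp ran from 120 through 185 to 238 CPM in g4 HA-negative and from 37.1 through 45.3 to 127 CPM in g4 HA-positive libraries, a log2 fold change of -1.47 ± 0.22 (SE, edgeR adjusted p = 6.15e-05). Enpp2 ran from 97.4 through 117 to 154 CPM and from 13.7 through 54.7 to 81.6 CPM, with no overlap, and its log2 fold change was -1.24 ± 0.25 (SE, edgeR adjusted p = 0.00154). These calls for Mbp and Enpp2 held in each of the 16 alternatives computed for them. Ermn fell by 2.55 ± 0.56 on the log2 scale (SE, edgeR adjusted p = 0.00941), from 53.2, 66.9 and 103 CPM (lowest, median, highest) to 0, 5.06 and 41.8 CPM.

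The other 4 falls with g4 had wide errors. Mal ran from 132 through 199 to 296 CPM in g4 HA-negative libraries and from 3.38 through 12.3 to 141 CPM in g4 HA-positive ones, where library 19 held 135 of the 167 counts. Its log2 fold change was -2.63 ± 0.65 (SE, edgeR adjusted p = 0.0314). Cldn11 ran from 65.1 through 87.2 to 153 CPM and from 0 through 4.12 to 64.8 CPM, with a log2 fold change of -2.70 ± 0.69 (SE, edgeR adjusted p = 0.0348). The highest of the HA-positive values belonged to library 19 for both genes. Trf ran from 187 through 240 to 359 CPM and from 0 through 19.5 to 185 CPM, a log2 fold change of -2.54 ± 0.65 (SE, edgeR adjusted p = 0.0374). Mobp ran from 35.7 through 63.4 to 91.7 CPM and from 0 through 5.86 to 58.6 CPM, a log2 fold change of -1.87 ± 0.52 (SE, edgeR adjusted p = 0.0359). With the animal as a block the log2 fold changes of Mal and Trf were larger, at -3.42 ± 0.77 and -3.34 ± 0.75 (SE), and neither was called (edgeR adjusted p = 0.0585 and 0.0584). Scaling to library totals alone ended the calls for Mal (edgeR adjusted p = 0.0564), Cldn11 (0.0602), Trf (0.0671) and Mobp (0.0909). With no filter on low counts 5 members were called, Mog among them, and Mal (edgeR adjusted p = 0.0636), Cldn11 (0.0717) and Trf (0.0784) were not.

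In library 19 every member but Mog stood at 76.9% or more of its level in the HA-negative library of the same animal and vector. Mal was at 141 CPM in it, or 107% of that partner library, Trf at 185 CPM or 99.0%, Mobp at 58.6 CPM or 94.9%, Cldn11 at 64.8 CPM or 80.5%, Ermn at 41.8 CPM or 78.7%. In the other 6 libraries of its group the highest values of these 5 genes were 19.2, 26.1, 17.8, 9.88 and 15.6 CPM in the same order. Mog, at 7.32 CPM, stood at 32.8% of its HA-negative partner, Mbp and Enpp2 at 76.9% and 79.3%, and Myrf at 198%. Summed over the 36 further myelin genes, library 19 held 1646 CPM and the other 6 at most 270 CPM. Its 14 microglia genes summed to 404 CPM against at most 46.9 CPM, its 15 inhibitory neuron genes to 2350 CPM, the lowest of the group, and its 13 astrocyte genes to 1682 CPM, inside the range of the others. How these sums bear on the members' values was not tested.

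**Figure D3:**
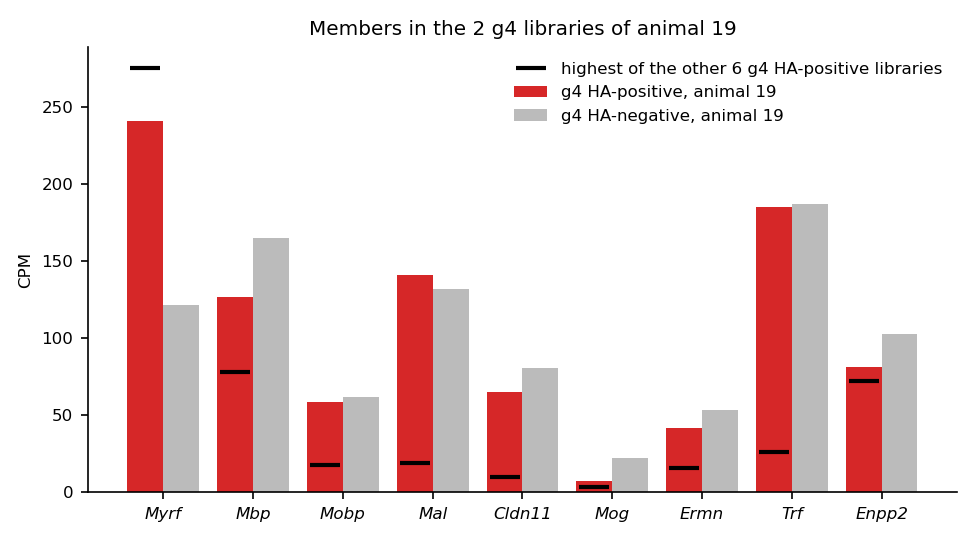
CPM of the 9 genes in the HA-positive (red) and HA-negative (grey) g4 libraries of animal 19. Bars start at 0 and the black dash is the highest of the other 6 g4 HA-positive libraries. For Mal, Trf and Mobp the red bar reaches 94.9% or more of the grey one, and Myrf is the one gene for which the dash lies above the red bar.

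Without library 19, 8 of 9 members fell with g4, and Mog, which then passed the filter, was among them, where 4.16% of the 6371 genes tested were called lower, 3.8% higher and 7.96% in either direction. Mog, too, passed the filter through the HA-negative libraries. The log2 fold change was then -4.32 ± 0.31 for Mal (SE, edgeR adjusted p = 1.87e-11), -4.69 ± 0.41 for Cldn11 (2.24e-10), -4.12 ± 0.34 for Trf (7.77e-08) and -4.26 ± 0.66 for Mog (1.31e-05). It was -3.71 ± 0.45 for Ermn (SE, edgeR adjusted p = 1.64e-07), -2.87 ± 0.41 for Mobp (4.18e-06), -1.77 ± 0.20 for Mbp (7.77e-08) and -1.43 ± 0.26 for Enpp2 (0.000148). Mean CPM in the 6 remaining libraries was 10.3 ± 7.04 for Mal, 14.1 ± 10.1 for Trf and 3.73 ± 3.67 for Cldn11 (SD, n = 6). The groups then overlapped for Myrf alone. The share of all genes tested whose groups did not overlap was not computed, so this describes the members only. With library 19 kept, the number of members called with g4 depended on each of the other animals: it was 3 without animal 17, 4 without 18, 2 without 20, 3 without 21, 3 without 22 and 4 without 23, and only Mbp and Enpp2 were called in all of these.

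The members can be ordered by how much of the HA-negative mean was left in HA-positive nuclei. With the empty vector this share was 0.821% for Mal, 0.977% for Cldn11 on the 2 counts whose interval is given above, 1.29% for Trf, 5.74% for Ermn, 7.97% for Mog, 8.98% for Mobp, 28.4% for Mbp, 51.8% for Enpp2 and 177% for Myrf. With g4 and without library 19 the share was 3.50% for Mog, 3.75% for Cldn11, 4.85% for Mal, 5.41% for Trf, 7.39% for Ermn, 12.7% for Mobp, 29.7% for Mbp, 38.9% for Enpp2 and 65.5% for Myrf. Mobp, Mbp, Enpp2 and Myrf had the 4 largest shares, in that order, with both vectors. Mobp and the members below it in these orders differed, neighbour to neighbour, by less than the spread between HA-positive libraries. With the empty vector the place of Mobp depended on animal 21, which held 11 of its 17 HA-positive counts. Without that animal its log2 fold change was -4.71 and that of Ermn -3.85. These shares compare each gene with itself and say nothing of the level of one member against another.

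Other genes of the myelin programme were counted from a list of 37, of which 36 were in the tables. With the empty vector 9 of these passed the filter, 8 fell and 0 rose, with a median log2 fold change of -2.68. With g4, 14 passed, 8 fell and 0 rose, with a median of -2.21. Over all genes tested, 3.5% were called lower with the empty vector and 3.08% with g4. Here too, genes near 0 in HA-positive nuclei could be called lower but not higher. Cnp, an enzyme of the uncompacted sheath, fell by 2.68 ± 0.35 on the log2 scale with the empty vector (SE, edgeR adjusted p = 2.88e-06). Omg, a surface glycoprotein that neurons make too, stood at 57.7 ± 30.2 and 45.5 ± 29.5 CPM with the empty vector (SD, n = 7 each) and was not called (edgeR adjusted p = 0.724).

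The regulators of the lineage were mostly too scarce to test. Of 10 oligodendrocyte transcription factors other than Myrf, 2 passed the filter in either fraction comparison and 0 were called. Sox8 had a log2 fold change of -1.33 ± 0.51 with the empty vector (SE, edgeR adjusted p = 0.123) and Zfp536 one of 1.00 ± 0.32 (adjusted p = 0.0568). Of 13 genes of oligodendrocyte precursors, 1 of 3 tested fell with the empty vector, and 2 of 4 fell and 1 rose with g4. Of 16 genes of cholesterol synthesis, the pathway that supplies the lipid of myelin, 0 of 7 were called with the empty vector and 0 of 9 with g4. Over all genes tested, 7.01% were called in either direction with the empty vector and 6.4% with g4.

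Markers of other cells moved with the sort too. Over all genes tested, 3.5% were called lower and 3.5% higher with the empty vector, and 3.08% and 3.32% with g4. Microglia genes fell in 5 of 5 tested with the empty vector and 4 of 6 with g4, and inhibitory neuron genes rose in 10 of 13 and 10 of 14. The microglia genes tested were scarce in HA-positive nuclei and passed the filter through the HA-negative libraries, so a rise could not be called for them. The summed CPM of the 15 inhibitory neuron genes was 1142 to 1501 in empty HA-negative and 3135 to 4903 in empty HA-positive libraries, and that of the 14 microglia genes 312 to 698 and 6.95 to 51.5 CPM, with 6 of the 14 at 0 in all 7 HA-positive libraries. Excitatory neuron genes fell in 3 of 12 and 3 of 13, and astrocyte genes in 1 of 8 and 0 of 9. Genes of endothelium and of choroid plexus, a tissue that also makes Enpp2 and transferrin, were tested in neither comparison: the 7 choroid plexus genes summed to at most 9.87 CPM in any library and the 9 endothelial genes to at most 45.8 CPM. The part of these cell types in the members' values was not tested.

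The next question is whether the g4 vector changed the members within a fraction. In HA-negative nuclei all 9 members passed the filter and 0 were called, where 0% of all 6262 genes tested were called by edgeR (236 had an unadjusted p under 0.05, DESeq2 called 1 and limma voom 0). Log2 fold changes of g4 against empty ran from -0.12 for Mobp to 0.28 ± 0.20 for Cldn11 (SE, edgeR adjusted p = 0.999 for every member), with 7 members higher, 2 lower and a median of 0.14. Mal was at 197 ± 45.9 CPM (empty) and 213 ± 63.5 CPM (g4), Trf at 234 ± 75.8 and 261 ± 74.5, and Mbp at 162 ± 27.6 and 183 ± 38.3 (SD, n = 7 each). The 2 groups overlapped for every member.

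In HA-positive nuclei 3 members passed the filter, Mbp, Enpp2 and Myrf, and 0 of them were called, where 0.0599% of the 5011 genes tested were called (0.02% higher and 0.0399% lower). DESeq2 and limma voom called 0 of the 3 as well, and Myrf had an unadjusted p under 0.05. Mbp was at 46.0 ± 15.5 CPM (empty) and 64.8 ± 31.9 CPM (g4), a log2 fold change of 0.48 ± 0.33 (SE, edgeR adjusted p = 0.833). Enpp2 was at 56.1 ± 28.8 and 52.5 ± 23.4 CPM, a log2 fold change of -0.15 ± 0.36 (SE, edgeR adjusted p = 0.969). For both genes the empty and g4 libraries overlapped.

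The 6 members below the filter were at or near 0 in most HA-positive libraries with the empty vector, and 5 of them had a higher mean with g4. Mobp went from 6.22 ± 10.8 to 15.3 ± 20.3 CPM and Ermn from 3.77 ± 4.89 to 10.5 ± 15.0 CPM, while Mog was at 2.21 ± 4.45 and 1.92 ± 2.79 CPM (SD, n = 7 each). Mal was at 0, 0 and 7.36 CPM (lowest, median, highest) with the empty vector and at 3.38, 12.3 and 141 CPM with g4. It was higher with g4 in 7 of 7 animals, though the groups overlapped, and 6 of the 7 g4 libraries held 2 to 14 counts of it. Trf was higher in 6 of 7 animals and Cldn11 in 5 of 7. Mal, Trf and Cldn11 were each at 0 in 5 of 7 empty HA-positive libraries. In those animals g4 could be level or higher but not lower, and for these genes only a rise could be called. The g4 library was also the deeper one in animals 17, 19, 20, 21 and 23, and the shallower one in 18 and 22. With no filter on low counts Mal and Trf were called, among 0.16% of the 17517 genes then tested, with log2 fold changes of 4.24 ± 0.82 (SE, edgeR adjusted p = 0.00039) and 4.06 ± 0.71 (9.53e-05), and Cldn11, at 3.84 ± 1.10, was not (0.150). With the animal as a block and no filter, Trf was called (edgeR adjusted p = 0.0424) and Mal was not (0.173). Without library 19 and with no filter, the log2 fold changes were 2.63 ± 1.14 for Mal (SE, edgeR adjusted p = 0.414) and 2.42 ± 1.01 for Trf (0.411), and 0 members were called.

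Whether the drop from HA-negative to HA-positive nuclei differed between the vectors was tested with an interaction term over the 28 libraries. All 9 members were tested and 0 were called, as 0% of the 7197 genes tested were (359 had an unadjusted p under 0.05, DESeq2 and limma voom called 0 genes). The term was 4.28 ± 1.16 for Mal, 4.09 ± 1.18 for Trf and 3.76 ± 1.15 for Cldn11 on the log2 scale (SE, edgeR adjusted p = 0.797 for each), and these 3 members had an unadjusted p under 0.05. It was 1.61 ± 0.84 for Mobp, 1.48 ± 0.88 for Ermn, 0.33 ± 0.32 for Mbp and -0.34 ± 0.38 for Enpp2. Without library 19 the terms of Mal, Trf and Cldn11 were 2.60 ± 0.68, 2.51 ± 0.83 and 1.78 ± 0.86, and 0 were called. With no filter, Cldn11 alone was called in all libraries (3.78, edgeR adjusted p = 0.0281) and Mal alone without library 19 (2.61, adjusted p = 0.0207), where 0.0153% and 0.0361% of all genes tested were called.

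Myrf, the membrane-bound transcription factor that drives the programme (chromosome 19, 10208272 to 10240748, minus strand), was called in neither fraction comparison. Its lowest, median and highest values were 61.0, 161 and 280 CPM in empty HA-negative, 134, 327 and 471 CPM in empty HA-positive, 35.8, 185 and 293 CPM in g4 HA-negative and 5.86, 104 and 275 CPM in g4 HA-positive libraries. All 4 groups overlapped. HA-positive nuclei had the higher Myrf value in 6 of 7 animals with the empty vector and in 3 of 7 with g4. The log2 fold change between fractions was 0.83 ± 0.34 with the empty vector (SE, edgeR adjusted p = 0.178) and -0.37 ± 0.58 with g4 (0.824). The first was called without animal 18 (1.11, edgeR adjusted p = 0.0172) and with no filter on low counts (0.76, 0.00588). Without library 19 the g4 value was -0.65 ± 0.61 (SE, edgeR adjusted p = 0.653).

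Within HA-positive nuclei Myrf had the largest difference between vectors among the 3 members tested. It was lower with g4 in 6 of 7 animals, with means of 306 ± 118 and 127 ± 96.3 CPM (SD, n = 7 each) and a log2 fold change of -1.27 ± 0.54 (SE, edgeR adjusted p = 0.730). Without library 19 this was -1.53 ± 0.56 (SE, edgeR adjusted p = 0.763), and over 17 alternatives it ran from -1.69 to -1.04 with no call. The interaction term was -1.18 ± 0.68 (SE, edgeR adjusted p = 0.996). Myrf varied widely within each group, with a coefficient of variation of 45.0% in empty HA-negative, 38.4% in empty HA-positive, 53.3% in g4 HA-negative and 76.0% in g4 HA-positive libraries, and animal 17 had 3 Myrf counts in g4 HA-positive nuclei and 94 in empty HA-positive ones.

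The HA-negative libraries show how the members vary among themselves, in nuclei where all 9 are measured. Over these 14 libraries, on log2(CPM + 5) with the vector means removed, the 28 pairs among the 8 members other than Myrf had a median Pearson r of 0.29, from 0.03 to 0.86, the highest being Mal with Trf. Myrf had a median r of 0.03 with the other 8, from -0.37 with Enpp2 to 0.59 with Mbp. These are descriptions over libraries that share animals in pairs and differ in depth. The median r of Myrf was the lowest of the 9. A high r was not particular to the members. Among 4641 genes compared in these libraries, small RNAs such as Gm25194 (r = 0.89) and Gm26444 (r = 0.88) were closer to Mal than Trf was.

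Pearson r was taken on log2(CPM + 5) with the group means removed, among 4641 genes with a mean count of at least 15. The genes whose pattern was most like that of Myrf over the 28 libraries were picked by this r, after the values had been seen. They were Gm30132, a long intergenic RNA (r = 0.87, Spearman's rho = 0.92), Ak7 (0.87), Gm15461 (0.87), Rasl11a (0.86) and Mrpl48 (0.86). For Gm30132 the r was 0.82 without the 2 libraries farthest from the median, and 0.85 to 0.99 within each of the 4 groups of 7. Its medians were 1875 CPM in empty HA-negative, 4821 in empty HA-positive, 1723 in g4 HA-negative and 1307 in g4 HA-positive libraries, the order of the Myrf medians except for the 2 HA-negative groups. Libraries low in one were low in the other: in animal 17 the g4 HA-positive nuclei held 103 CPM of Gm30132 and 5.86 of Myrf, the empty HA-negative library of animal 21 held 35.7 and 61.0, and the g4 HA-negative library of animal 20 held 64.0 and 35.8. Genes of a library share its depth and input, and no p-value is given for a likeness chosen in this way.

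**Figure D4:**
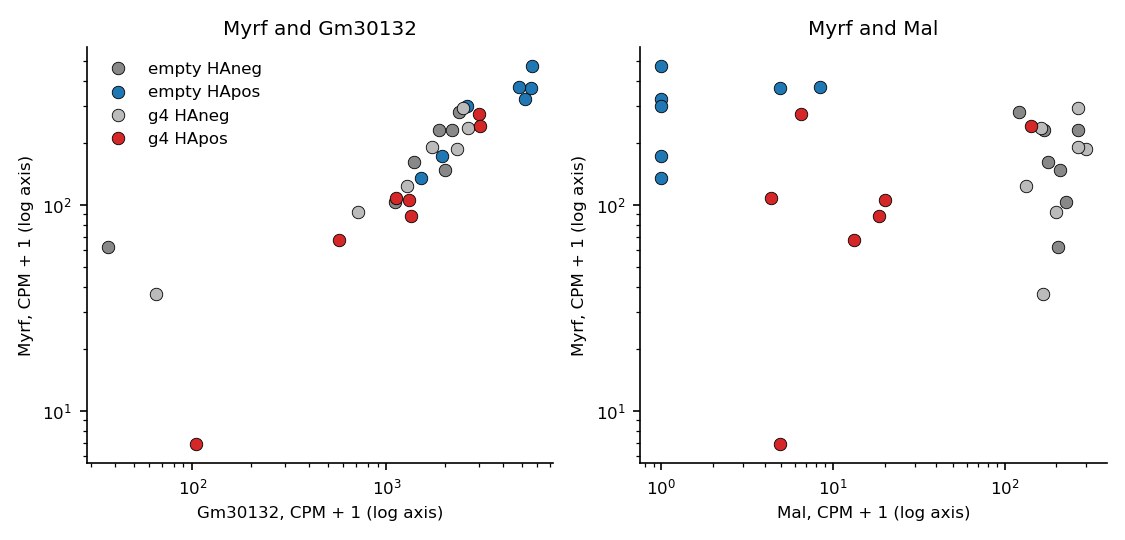
Myrf against Gm30132 (left) and against Mal (right), CPM + 1 on log axes, 1 point per library, coloured by group. Myrf follows Gm30132 through all 4 groups (r = 0.87 over 28 libraries), while libraries with no Mal count and libraries with over 100 CPM of Mal overlap in Myrf.

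Genes next to the members were looked up in the GRCm38 annotation, with the closest on either side and any that overlaps. This gave 24 neighbours, of which 18 were in the tables and 7 were tested in at least 1 comparison. One was called: Skil, 27342 bases from Cldn11, fell by 0.69 ± 0.21 on the log2 scale in HA-positive nuclei with the empty vector (SE, edgeR adjusted p = 0.0439). Over all genes tested in that comparison, 3.5% were called lower and 7.01% in either direction. Dagla, 4516 bases from Myrf on the same strand, was at 88.3, 79.1, 85.2 and 75.0 CPM on average in empty HA-negative, empty HA-positive, g4 HA-negative and g4 HA-positive libraries and was not called. Gabbr1, next to Mog, and Zfp236, next to Mbp, were not called either. Overlapping genes are Gm38642 at Mobp, Galnt5 at Ermn, Gm26684 at Enpp2, Gm22388 at Mog and Rpl21-ps8 at Mbp. Apart from Gm38642 these lie on the other strand, and whether the counting used strand is not given in the sources used here.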

How the data were processed

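RNA of sorted nuclei from 28 samples was sequenced, and the authors deposited tables of whole-number counts per gene for HA-positive and for HA-negative nuclei. The genome build is GRCm38, per the submitters' processing notes. The aligner, the counting tool and its strand setting were not given in the sources used here. Per the labels' protocols, libraries were made from very small amounts of total RNA. Blank cells (71.6% of the values) were read as 0, and 1 row that names no gene was left out. Groups came from the sample titles, and columns were tied to samples by the column names in the sample descriptions. For 3 animals the number in the title is 1 lower than that in the column name, and titles are used in the text.

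The members and the marker lists were chosen with earlier results of these data known. Counts were tested with edgeR 4.0.16 (R 4.3.3): filterByExpr by group, TMM factors, a robust quasi-likelihood fit and two-sided tests, with Benjamini-Hochberg adjustment over all genes tested and a threshold of 0.05. A gene nearly absent from 1 group passes this filter through the other group alone and can be called in 1 direction only. The fits used the 14 libraries of a comparison, or all 28 for the interaction term, in 5 comparisons. The SE is the log2 fold change divided by the square root of F. The p-values of these fits measure the spread between the 7 libraries of a group, each from a different animal, and leave out the pairing by animal. Replicate numbers mark the same animal in every group, per the labels, so they pair the samples. Deviations from group means in libraries of the same animal correlated between -0.117 and 0.188 over 3710 genes. The animal as a block was an alternative, as were DESeq2 1.42.0, limma voom (limma 3.58.1), other scalings, no filter, 1 model over 28 libraries and leaving out each animal or library 19. The edgeR and interaction scripts were tested on simulated data. All 9 members are named in each comparison, with their nearest annotated neighbours, up to 4 most abundant genes of each list, and the 5 genes outside the lists with the largest fall. Some genes that this rule names are not reported here.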

Additional observations from a re-analysis of the deposited data

Results flagged for a closer look

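In each of 36 sets of 7 values (9 members in 4 groups) the highest and the lowest library were compared with their nearest neighbour. Dixon's criterion is met in about 1 in 20 sets of independent, normally spread values. Sets with many values of 0 are not of that kind, and the sets share libraries, so this rate does not apply as it stands. In 9 sets the highest library stood far from the other 6 by this criterion. Library 19 (animal 19, g4 HA-positive) accounted for 5 of them: Mal at 141 CPM, Cldn11 at 64.8 CPM, Trf at 185 CPM, Mobp at 58.6 CPM and Ermn at 41.8 CPM. In empty HA-positive nuclei the highest library stood apart for Trf at 17.4 CPM in animal 17 (5 counts), for Mobp at 29.9 CPM in animal 21 (11 counts) and for Mog at 11.8 CPM in animal 22 (6 counts). In empty HA-negative nuclei Mog stood apart at 53.2 CPM in animal 17 (23 counts). With the filter on low counts, no member's interaction term passed the threshold. Without it, that of Cldn11 did in all libraries (adjusted p = 0.0281) and that of Mal without library 19 (adjusted p = 0.0207).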

How the results depend on the processing

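With the empty vector, 6 to 9 members were called over all alternatives. With g4, 7 were called in the main analysis, 3 with scaling to library totals only, 5 with no filter, and 2 to 8 when an animal or library 19 was left out. With the animal as a replicate block, 6 members were called with the empty vector (Enpp2 was lost), 5 with g4 (Mal and Trf were lost), 8 with g4 when library 19 was left out too, and 0 in the other 3 comparisons. Between vectors in HA-positive nuclei, 2 members were called with no filter and 1 with no filter and the replicate block, an alternative added after seeing the data. For the interaction term, 1 was called with no filter and 1 with no filter and without library 19, the latter also added after seeing the data. The cause of these changes was not tested.

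Changes of sign met no threshold (log2 values). Leaving out 1 animal, the difference between vectors ran from -0.36 to 0.0056 for Enpp2 in HA-positive nuclei, and in HA-negative nuclei from -0.20 to 0.24 for Mog and from -0.45 to 0.092 for Myrf. The interaction term ran from -1.06 to 2.17 for Mog, from -0.098 to 0.55 for Mbp and from -0.069 to 2.06 for Ermn. That of Mog, near 0, was 0.14 with the replicate block, 0.11 with limma voom and 0.046 with no filter. In all, 12 log2 fold changes of members changed sign, 495 kept sign and call, 41 lost a call and 4 gained one.

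Over all genes, the main counts higher and lower were 194 and 194 with the empty vector and 208 and 193 with g4. The lower count alone moved beyond 1.5 times with no filter (233 and 428 with the empty vector, 251 and 296 with g4). It alone also did so with 1 model over 28 libraries (265 and 347 with the empty vector) and with library totals only (142 and 117 with g4). Both counts did so on leaving out 1 animal (122 to 183 and 129 to 188 with the empty vector, 121 to 213 and 91 to 209 with g4). Between vectors in HA-positive nuclei the main counts were 1 and 2, against 14 and 14 with no filter, 5 and 6 with DESeq2 and 6 and 2 with 1 model. For the interaction term they were 0 and 0, against 2 and 1 with no filter. Depth limits the scarce members: 1 count was worth up to 3.68 CPM, and Mal, Cldn11, Trf and Mog rested on 2 to 7 counts in empty HA-positive nuclei.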

Other observations

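Outside the lists, the largest falls in HA-positive nuclei with the empty vector, among genes with at least 20 CPM in HA-negative nuclei, included that of Ndrg1, a differentiation-linked gene that oligodendrocytes express, with a log2 fold change of -4.52 ± 0.63 (SE, edgeR adjusted p = 9.76e-06). Ptgds, which encodes prostaglandin D synthase and is made by oligodendrocytes and meninges, had a log2 fold change of -4.50 ± 0.57 (1.80e-06), and Gatm, an enzyme of creatine synthesis, one of -3.41 ± 0.50 (2.25e-05). Dock10 had one of -3.66 ± 0.46 (1.55e-06). The fall was thus not limited to the genes on the lists. Which cells the RNA of these genes came from was not tested.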
